A study of Homo sapiens with 4 samples.

Results

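The contacts described here are those of the ACTB locus in A673, an established Ewing sarcoma cell line, as captured with the cohesin subunit SMC1. They are all anchor pairs with an anchor that overlaps a 15-kb window on chromosome 7, from 5.56 to 5.575 Mb (hg19), set around the known position of ACTB, which was not checked against an hg19 annotation here. The window held 130 of the 1125468 anchor pairs seen in the 4 libraries. An anchor is a stretch of genome where cohesin-bound ends collect, and a paired-end tag (PET) is a ligated fragment that joins 2 anchors. In HiChIP, cells are fixed, the genome is cut and re-ligated in place, and ligated fragments bound to a chosen protein are then pulled down and sequenced.

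The study compared 2 libraries of STAG2-null A673 cells with 2 libraries of wild-type A673 cells. The STAG2-null cells came from single-cell clones altered with Cas9. The labels do not say which clone gave which library, whether both libraries of a genotype came from separate cultures, or whether the wild-type cells were cloned, so the spread between libraries may be technical. Clone and genotype cannot be told apart. The contacts carry no transcript or protein level, so neither the loss of STAG2 nor the cell type was checked here.

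ACTB was chosen by a measured value, since the authors' deposited table of 650 differential loops lists a loop under this gene as stronger in STAG2-null cells. The genotype contrast at the locus is therefore a description. Fits over all features give its size and standard error, and calls at an adjusted p of 0.05 are counted beside the share of all features called, with nothing read from them. With 2 libraries against 2, an exact two-sided permutation test could not go below a p of 0.333.

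ACTB encodes beta-actin, which builds the filaments of the cytoskeleton and is among the most abundant proteins of most cells. Its transcription is raised by serum response factor, a regulator of many cytoskeletal genes. Cohesin is a ring-shaped complex that contains SMC1 and either STAG1 or STAG2, and it folds chromatin into loops whose ends often lie at sites bound by CTCF. STAG2 is mutated in a share of Ewing sarcomas. In the RefSeq gene order, used for names only, FBXL18, an F-box gene, and TNRC18 precede ACTB, and FSCN1, which encodes an actin-bundling protein, and RNF216, a ubiquitin ligase gene, follow it.

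The STAG2-null libraries held 682724 and 698002 PETs and the wild-type libraries 661881 and 765017. Chromosome 7 took 10.8% ± 0.0580 (SD, n = 2) of the PETs of the STAG2-null libraries and 8.97% ± 0.0338 (SD, n = 2) of the wild-type libraries. The first 10 Mb of the chromosome, where ACTB lies, took 2.06% ± 0.137 and 1.88% ± 0.00336 (SD, n = 2 each). Neither pair of ranges overlapped, so the scale chosen for a sum at ACTB sets part of its value. No batch is given in the labels.

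In this window the contacts gathered on 2 anchors. A broad anchor of 8.82 kb (chr7:5564280-5573103) entered 81.3% of the PETs of the window, and a small anchor of 1.45 kb (chr7:5562130-5563581) lies 0.699 kb below it. The broad anchor held 152 and 119 PETs in the STAG2-null libraries and 116 and 139 in the wild-type libraries. The small anchor held 41 and 55 against 37 and 44. Both were among the fuller anchors of the chromosome, the broad one ranking 69 and the small one 734 of 6192 by PETs. Per kb of anchor the order turned, with 122 PETs per kb on the small anchor and 59.6 on the broad one, against a median of 27.1 over the 5372 anchors of chromosome 7 with 20 or more PETs. The nearest anchors that the window leaves out held 239 PETs below it (chr7:5552186-5554494) and 99 above it (chr7:5580342-5581950).

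Most of these contacts were sparse. Of the 130 pairs, 56 held 1 PET over the 4 libraries, 56 held 2 to 9, 12 held 10 to 19, and 6 held 20 or more. Pairs with 1 PET made up 43.1% of the pairs of the window and 60.4% of all pairs of the series. Each library saw between 60 and 69 of the 130 pairs, 27 pairs were seen in all 4 libraries, and 67 in 1 library. The 42 pairs seen in STAG2-null libraries alone had at most 2 PETs each, and the 34 seen in wild-type libraries alone at most 3, which is too few to call a contact absent from a genotype. The authors' deposited table of 22680 high-confidence loops contains 12 of the 130 pairs, and their differential table contains 0.

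The 6 pairs with 20 or more PETs entered the fit over all 11872 such pairs of the series, and they held 36.9% of the PETs of the window. All 6 have the broad anchor as an end. The least filled of them had 24 PETs and the fullest pair left out had 18. In edgeR's quasi-likelihood fit, 0 of the 6 passed an adjusted p of 0.05, and 23 of the 11872 pairs did (0.194%). Library totals in a fit were adjusted with TMM factors, which align the bulk of features between libraries, unless plain totals are named. Values below are PETs per library, then the fitted log2 difference, STAG2-null over wild-type, with its standard error. That error was derived from the test, as the size of the log2 difference over the square root of its F statistic.

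The strongest contact joined the broad anchor to an anchor 27.6 kb away on the higher side (chr7:5588329-5604184). It held 19 PETs in each STAG2-null library, and 13 and 16 in the wild-type libraries. Both STAG2-null libraries lay above both wild-type libraries. Normalised counts were 26.7 ± 1.18 and 21.0 ± 1.52 (SD, n = 2 each), a fitted log2 difference of 0.34 ± 0.38. Among the 8548 pairs of chromosome 7 that span 20 to 50 kb, 10 held as many PETs or more, itself included. Its partner is the anchor to which the authors' deposited table gives the start of ACTB, and it is described further below.

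The next strongest contact joined the broad and small anchors of the window to each other, over 5.84 kb. It held 16 and 15 PETs in the STAG2-null libraries and 11 and 14 in the wild-type libraries. As for the strongest contact, the STAG2-null libraries were higher without overlap when scaled by library total. The fitted log2 difference was 0.26 ± 0.41, smaller than its standard error.

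On the lower side, towards TNRC18 and FBXL18, the strongest contact spanned 37.1 kb (partner chr7:5525314-5537938). It held 9 and 10 PETs in the STAG2-null libraries and 8 and 12 in the wild-type libraries, a fitted log2 difference of -0.12 ± 0.49. A contact of 15.4 kb on the same side (partner chr7:5552186-5554494) held 11 and 3 PETs against 7 and 5 (0.17 ± 0.60). In both, the genotypes overlapped. In the shorter contact STAG2-null 1 was the highest of the 4 libraries and STAG2-null 2 the lowest, and the fitted log2 difference was 0.88 without STAG2-null 2 and -0.14 without wild-type 2.

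On the higher side, towards FSCN1 and RNF216, 2 longer contacts passed 20 PETs. The contact over 66.7 kb (partner chr7:5630775-5639995) held 11 and 6 PETs in the STAG2-null libraries and 3 and 4 in the wild-type libraries. This was the widest difference among the 6, with a fitted log2 difference of 1.21 ± 0.64, and the genotypes did not overlap. Its ratio of summed PETs scaled by library total was 2.51, with an exact 95% interval from 0.989 to 7.16 that covers counting error only. The contact over 106 kb (partner chr7:5668883-5679766) held 6 and 7 PETs against 10 and 4 (-0.15 ± 0.58). There the wild-type libraries lay on both sides of the STAG2-null libraries, and without wild-type 2 the fitted log2 difference was -0.76.

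**Figure D1:**
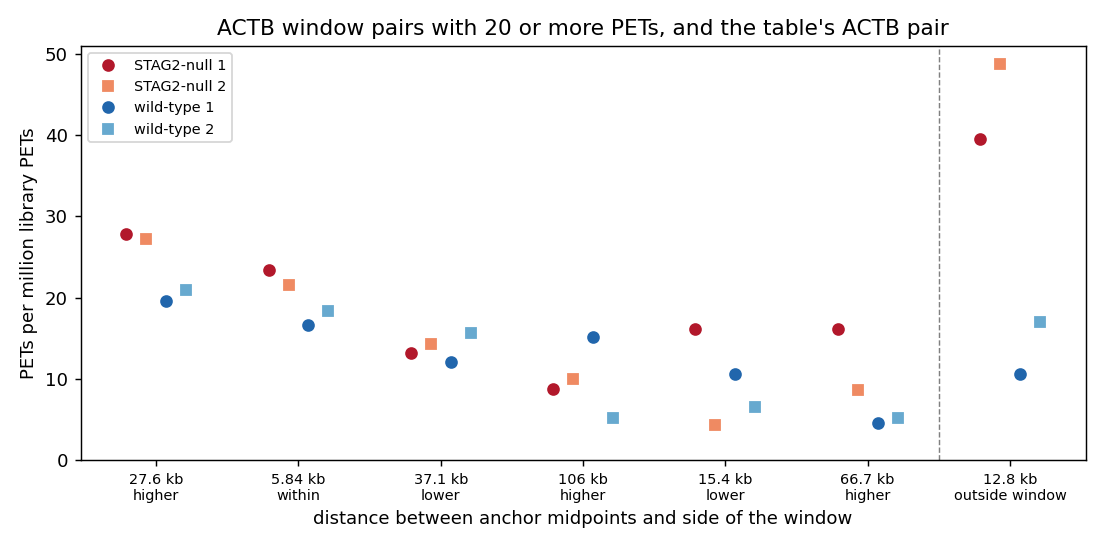
PETs per 1000000 library PETs (vertical axis) in each library, for the 6 pairs of the ACTB window with 20 or more PETs, ordered by total, and, right of the dashed line, for the pair that the authors' deposited table lists under ACTB, which lies outside the window. The strongest window pair stood at 27.8 and 27.2 in the STAG2-null libraries and at 19.6 and 20.9 in the wild-type libraries, and the listed pair at 39.5 and 48.7 against 10.6 and 17.0.

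Below 20 PETs the counts are too low for a fit of their own, and 12 pairs held 10 to 19. A 105-kb contact on the lower side (partner chr7:5456398-5471398) held 6 and 5 PETs in the STAG2-null libraries and 1 in each wild-type library. The ratio scaled by library total was 5.68, with an exact 95% interval from 1.24 to 52.8. A 78.7-kb contact on the higher side held 5 and 6 PETs against 2 and 3. In the opposite direction, a 23.8-kb contact on the lower side held 1 and 3 PETs against 5 and 4, and a 149-kb contact on the higher side 3 and 1 against 3 and 5. These 4 were chosen after their values were seen, as the pairs of 10 to 19 PETs without overlap between genotypes when scaled by library total.

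Over all 18 pairs with 10 or more PETs, both STAG2-null libraries were higher in 5 and both lower in 2 when scaled by library total. Over the series 19.4% of such pairs were higher and 18% lower in the same way. Among the 3938 chromosome 7 pairs with 10 or more PETs, both STAG2-null libraries were higher in 28.9% and both lower in 10%. Scaled by the chromosome 7 total, 4 of the 18 were higher and 3 lower, with no share over all pairs on that scale to set beside them. The contrast chose the locus, so nothing is read from these counts.

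**Figure D2:**
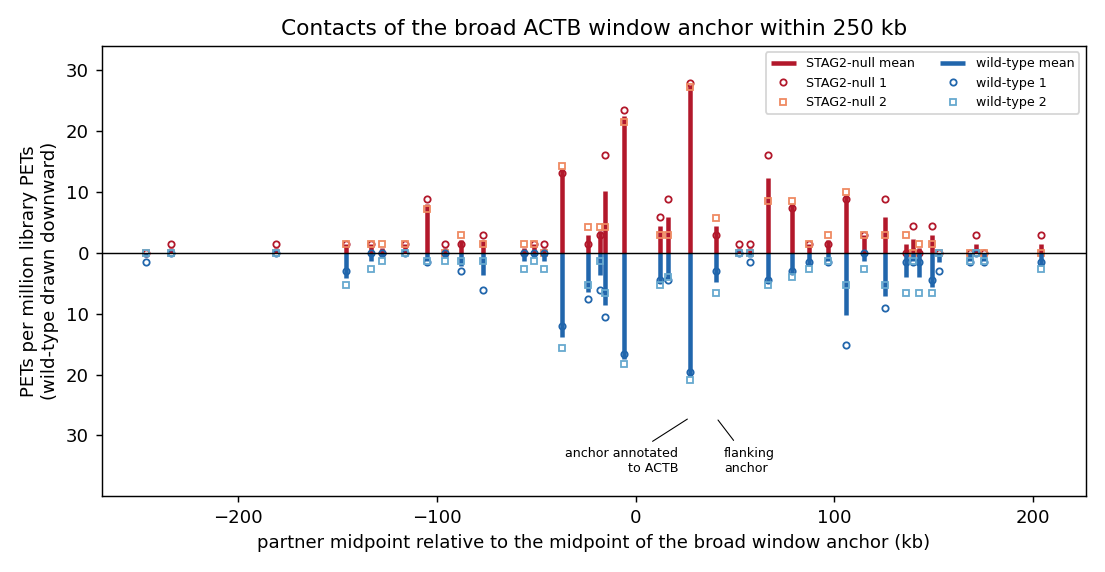
PETs per 1000000 library PETs between the broad window anchor and each partner within 250 kb, against the distance of the partner's midpoint (kb), with STAG2-null drawn upward and wild-type downward. Bars are means of 2 libraries and open symbols are single libraries. The tallest bars, in both genotypes, are the contact at 27.6 kb on the higher side and the one with the small anchor at 5.84 kb on the lower side, and the contact with the flanking anchor at 40.3 kb is low in both.

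Summed over the window, the contacts gave 177 and 159 PETs in the STAG2-null libraries and 142 and 169 in the wild-type libraries. Per 1000000 PETs of the library this was 244 ± 22.2 and 218 ± 4.50 (SD, n = 2 each), with both STAG2-null libraries above both wild-type libraries. As a share of chromosome 7 it was 0.226% ± 0.0195 and 0.243% ± 0.00411 (SD, n = 2 each). On that scale STAG2-null 1 and wild-type 1 both stood at 0.240% and the genotypes overlapped.

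The sign of the sum thus turned with the scale. The ratio of summed PETs was 1.12 (exact 95% interval 0.954 to 1.31) by library total, 0.932 (0.796 to 1.09) by chromosome 7 total, and 1.02 (0.871 to 1.19) by the total of the first 10 Mb. All 3 intervals contained equality. In the edgeR fit over all 51793 windows of 15 kb with 20 or more PETs, the log2 difference was 0.16 ± 0.14 with library totals (0.06 without STAG2-null 1 and 0.25 without STAG2-null 2), -0.10 ± 0.14 with chromosome totals and 0.03 ± 0.12 with 10 Mb totals. The window was not called under any of the 3, and 2.14% of all windows were called with library totals. With chromosome totals 127 windows were called higher and 125 lower, and with 10 Mb totals 4 and 9.

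All contacts of the window lie on chromosome 7, so a change from library to chromosome totals lowers each by nearly the same log2 amount. The sum is lowered alike, and this shared shift is arithmetic, not a result. The fit with chromosome totals has no TMM factors, so plain library totals are its counterpart. The median of all tested pairs was -0.04 with library totals and TMM, 0.05 with plain library totals and 0.11 with chromosome totals. From plain library totals to chromosome totals the strongest contact went from 0.43 to 0.18, the contact over 66.7 kb from 1.30 to 1.04, and the window sum from 0.16 to -0.10. With chromosome totals the fitted log2 differences of the 6 contacts were 0.18 (27.6 kb), 0.10 (5.84 kb), -0.28 (37.1 kb), -0.32 (106 kb), 0.01 (15.4 kb) and 1.04 (66.7 kb). The sum started nearer to 0 than these 2 contacts, and its sign turned. The remaining 124 pairs, with fewer than 20 PETs each, summed to 105 and 99 PETs in the STAG2-null libraries and 90 and 114 in the wild-type libraries. Their log2 ratio was 0.05 by library total and -0.21 by chromosome 7 total, and on the second scale both STAG2-null libraries were the lower ones.

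The strongest contact made up 10.7% and 11.9% of the PETs of the window in the STAG2-null libraries, and 9.15% and 9.47% in the wild-type libraries. These shares do not depend on library or chromosome totals. Their Wilson 95% intervals, from 7.79% to 17.9% in STAG2-null 2 and from 5.91% to 14.8% in wild-type 2, overlapped over most of their length. Without this contact the window summed to 158 and 140 PETs against 129 and 153, a log2 ratio of 0.13 by library total and -0.13 by chromosome 7 total.

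The 2 anchors of the window were also fitted among all 60425 anchors with 20 or more PETs, of which 0.875% were called. The broad anchor gave a log2 difference of 0.13 ± 0.16 with library totals, -0.12 with chromosome totals and 0.00 with 10 Mb totals. For the small anchor the values were 0.28 ± 0.24, 0.03 and 0.16, and with library totals 0.47 without STAG2-null 1 and 0.07 without STAG2-null 2. Neither was called under any of these scales. With chromosome totals 60 anchors were called higher and 45 lower. With 10 Mb totals 0 anchors were called in either direction, so the lack of a call there does not set these 2 apart. The broad anchor rested on STAG2-null 1, its highest library, since the log2 difference without that library was -0.07.

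**Figure D3:**
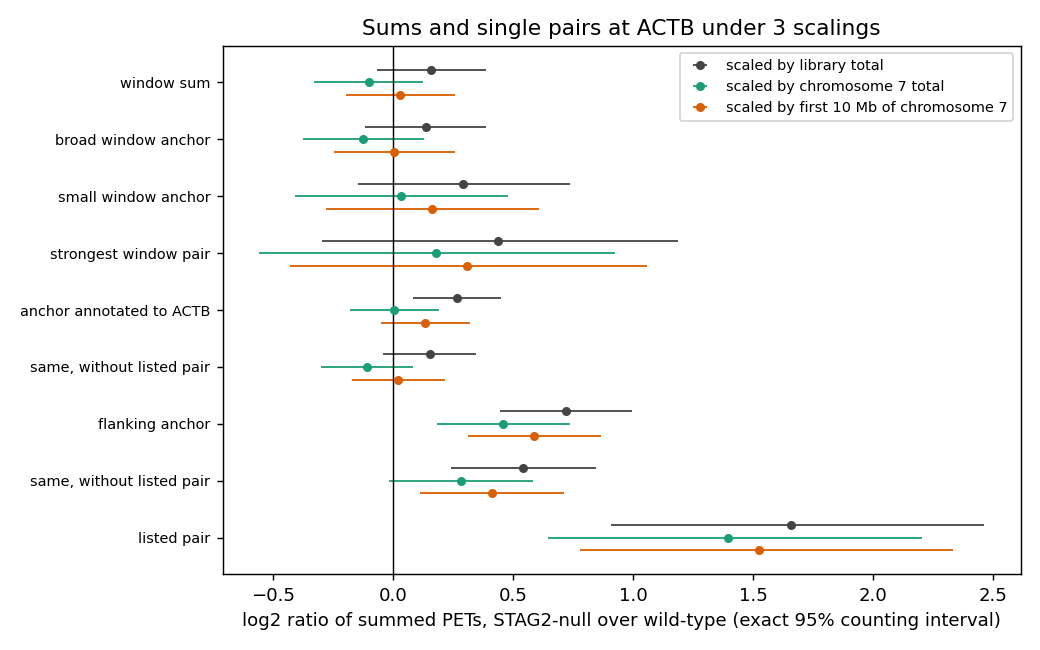
Log2 ratio of summed PETs, STAG2-null over wild-type, for sums and single pairs at ACTB, scaled by library total, chromosome 7 total or the total of the first 10 Mb of chromosome 7. Lines are exact 95% intervals that cover counting error only. The window sum lies on either side of 0 (0.16 and -0.10), and the listed pair, outside the window, lies above 0 under all 3 scales. The listed pair was chosen by this contrast.

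By distance, the window was rich in contacts of 20 to 50 kb and of 100 to 200 kb and poor in long ones. Contacts of 20 to 50 kb took 26.6% of its PETs, against 14.6% over all chromosome 7 pairs, and contacts of 100 to 200 kb took 22.9%, against 13.3% to 14.7% in the single libraries over the chromosome. Contacts over 200 kb were the scarcer part, with 7.73% against 19.1% at 200 to 500 kb and 6.18% against 19.5% beyond 500 kb. The median span over the 130 pairs was 219 kb and the longest 1801 kb. These shares describe 1 locus, and were not tested against others.

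The genotypes shared this layout. Contacts of 50 to 100 kb took 16.0% ± 1.31 of the window's PETs in STAG2-null cells and 13.2% ± 0.256 in wild-type cells (SD, n = 2 each). At 100 to 200 kb the shares were 21.6% ± 2.15 and 24.1% ± 0.224. In these classes the libraries did not overlap, while in the other 4 they did. At 20 to 50 kb, for example, STAG2-null 2 and wild-type 2 were both above STAG2-null 1 and wild-type 1, at 25.9% ± 7.01 and 27.4% ± 3.91. Over all chromosome 7 pairs the genotypes were apart in every distance class. There, 50 to 100 kb took 11.3% ± 0.116 in STAG2-null and 12.4% ± 0.0383 in wild-type libraries, the opposite direction to the window. At 100 to 200 kb the chromosome gave 13.4% ± 0.0677 and 14.6% ± 0.167, the same direction. A difference between window and chromosome was not tested.

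More of the contacts lay on the higher side, towards FSCN1, than on the lower side. The higher side took 54.1% of the PETs in 66 pairs, the lower side 37.2% in 63 pairs, and the contact between both window anchors 8.66%. The share of the higher side was 53.7% ± 3.93 in STAG2-null cells and 54.4% ± 0.766 in wild-type cells (SD, n = 2 each). Within it, contacts under 100 kb took 31.6% ± 0.709 of the window in STAG2-null cells and 27.6% ± 0.245 in wild-type cells, without overlap. Those of 100 kb or more took 22.1% ± 4.64 and 26.8% ± 1.01, again without overlap and in the opposite direction. This split by side was not made for other loci.

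**Figure D4:**
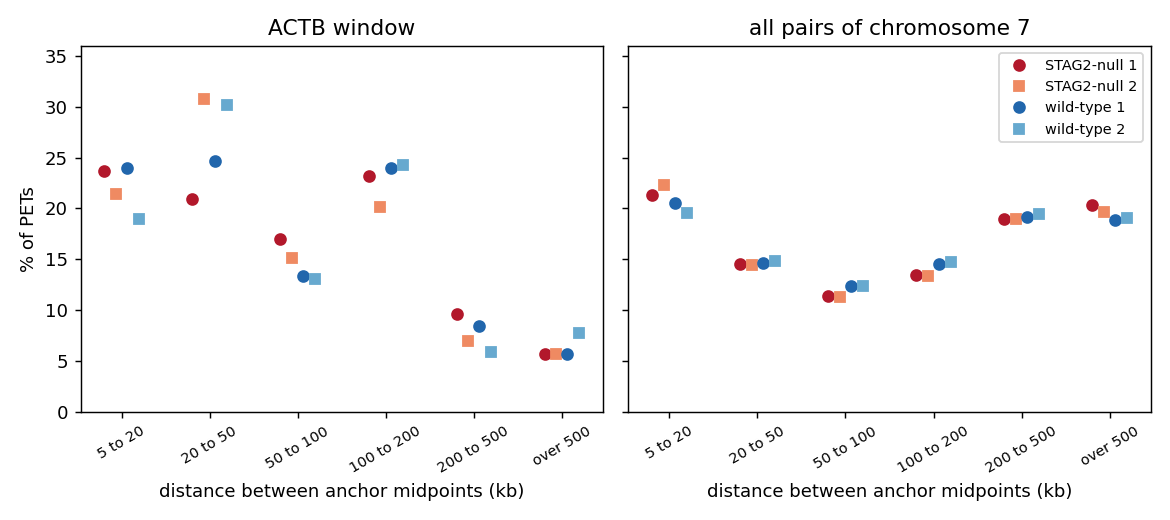
Share of PETs (%) by distance between anchor midpoints (kb) in each library, for the ACTB window (left) and all pairs of chromosome 7 (right). The window stands above the chromosome at 20 to 50 kb (26.6% against 14.6%) and below it beyond 500 kb (6.18% against 19.5%), in all 4 libraries.

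The loop that the authors' deposited table lists under ACTB is not one of these 130 pairs. It joins the anchor chr7:5588329-5604184, to which that table gives the start of ACTB, with a flanking anchor at chr7:5606781-5611268, over 12.8 kb. The annotated anchor begins 13.3 kb above the upper edge of the window and 15.2 kb above the broad anchor. Why the table places ACTB there was not tested. The table flags CTCF, FLI1 and H3K27ac, a mark of active promoters and enhancers, at the annotated anchor, and H3K27ac alone at the flanking one. FLI1 is the DNA-binding part of the EWS-FLI1 fusion of Ewing sarcoma.

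This listed loop held 27 and 34 PETs in the STAG2-null libraries and 7 and 13 in the wild-type libraries. The genotypes did not overlap, and normalised counts were 42.7 ± 5.05 and 14.3 ± 5.08 (SD, n = 2 each). The fitted log2 difference, STAG2-null over wild-type, was 1.55 ± 0.37 with library totals and TMM, 1.65 with plain library totals, 1.39 with chromosome totals and 1.52 with 10 Mb totals. The authors' deposited table gives a log2 of -1.59 in the direction wild-type over STAG2-null. The loop was past the threshold with library totals, which is the contrast that chose it, and not with either other scale. It was not past the threshold without STAG2-null 2 (1.45), wild-type 1 (1.24) or wild-type 2 (1.96), nor in DESeq2.

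The annotated anchor was the anchor with the sixth highest total among the 6192 of chromosome 7, with 258 and 264 PETs in the STAG2-null libraries and 206 and 243 in the wild-type libraries. Per 1000000 library PETs the means were 378 ± 0.229 and 314 ± 4.53, and as a share of chromosome 7 they were 0.351% ± 0.00211 and 0.350% ± 0.00373 (SD, n = 2 each). By library the genotypes were apart, and by chromosome they overlapped. The fitted log2 difference was 0.26 ± 0.13 with library totals and 0.00 with chromosome totals, and it was not called.

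The listed loop made up 10.5% and 12.9% of the PETs of the annotated anchor in the STAG2-null libraries, and 3.40% and 5.35% in the wild-type libraries. Its Wilson 95% intervals ran from 7.29% to 14.8% in STAG2-null 1, from 9.36% to 17.5% in STAG2-null 2, from 1.66% to 6.85% in wild-type 1 and from 3.15% to 8.94% in wild-type 2. The contrast of these same libraries chose the loop, so its shares and their intervals are a description and no support for a difference. Without the loop the anchor summed to 231 and 230 PETs against 199 and 230, a log2 ratio of 0.15 by library total and -0.11 by chromosome 7 total. The other 9 pairs of this anchor with 20 or more PETs ranged from -0.17 to 0.58 in fitted log2 difference.

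The flanking anchor held 138 and 147 PETs in the STAG2-null libraries and 78 and 101 in the wild-type libraries. Its fitted log2 difference was 0.71 ± 0.16 with library totals, past the threshold in edgeR, and 0.46 with chromosome totals, not past it. Nor was it past the threshold with 10 Mb totals (0.59), with a minimum of 2 PETs (0.72) or in DESeq2 (0.72). It was also not past the threshold without STAG2-null 2 (0.68), wild-type 1 (0.64) or wild-type 2 (0.79). Without the listed loop it summed to 111 and 113 against 71 and 88, a log2 ratio of 0.54 by library total and 0.28 by chromosome 7 total. The flanking anchor was picked because the listed loop ends there, so its difference is a description too. Its contacts with the window were few, at 2 and 4 PETs in the STAG2-null libraries and 3 and 7 in the wild-type libraries over 2 pairs. There the wild-type libraries were not lower, in contrast to the listed loop, and the libraries overlapped.

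Contacts between the window and the annotated anchor summed to 22 and 26 PETs in the STAG2-null libraries and 15 and 20 in the wild-type libraries. Their log2 ratio was 0.50 by library total and 0.24 by chromosome 7 total. The difference between this ratio and that of the listed loop was not tested.

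The 5 partner anchors of the tested window contacts outside the window were fitted without their PETs to the window, a measure that the window pairs do not enter. With library totals 0 of 5 were called in edgeR (2 at an unadjusted p under 0.05). Of all 60425 anchors in that fit, 225 were called higher and 304 lower (3487 and 3725 at an unadjusted p under 0.05). The fitted log2 differences were 0.33 ± 0.14 for the partner at 37.1 kb, 0.31 ± 0.23 at 15.4 kb, 0.24 ± 0.13 at 27.6 kb, 0.14 ± 0.14 at 66.7 kb and 0.38 ± 0.13 at 106 kb. All 5 were above 0 with library totals. With chromosome totals they were 0.08, 0.05, -0.02, -0.11 and 0.12, so the partner with the widest contact difference, at 66.7 kb, was the lowest of the 5 on both scales in its remaining contacts. On that second scale 0 of the 5 had an unadjusted p under 0.05 in edgeR. Nothing is read from the counts of partners.

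Genes of the actin cytoskeleton and targets of serum response factor were taken from a list of 59 names. A gene can be placed on an anchor only through the authors' deposited differential table, whose genes were picked on these libraries, so the list is not independent evidence of a direction. It placed 3 of the 59: ACTB, ACTR3B and MYL12A. ACTR3B, an actin-related protein of the Arp3 family, held 65 and 91 PETs on its anchor in the STAG2-null libraries and 51 and 39 in the wild-type libraries, and rose by 0.83 ± 0.21 on the log2 scale. MYL12A, a regulatory light chain of non-muscle myosin, held 65 and 59 against 53 and 52 (0.28 ± 0.21). ACTB and ACTR3B lie on chromosome 7, which took a larger share of the PETs of the STAG2-null libraries. MYL12A lies on chromosome 18. The median of the 3 was 0.28 with library totals, against 0.00 over all anchors, and 0.28 with chromosome totals, against -0.01. With library totals 1 of the 3 was called, as were 0.875% of all anchors. Nothing is read from this count, since the table chose the genes. None was called with chromosome totals, without STAG2-null 2 or without wild-type 2. None of 26 neighbouring genes of chromosome band 7p22, FSCN1 and RNF216 among them, was placed by that table.

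Among 75 gene-bearing anchors of similar total, those most like the annotated ACTB anchor over the 4 libraries were the anchor of TUBB, a beta-tubulin gene, the shared anchor of KISS1R and ARID3A, and the shared anchor of CYP27B1 and METTL1. Likeness was the Euclidean distance of centred log2 values scaled by library total, at 0.0584, 0.0600 and 0.0715. The TUBB anchor held 151 and 153 PETs in the STAG2-null libraries and 117 and 146 in the wild-type libraries.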

How the data were processed

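SMC1 HiChIP was measured in 4 A673 libraries, grouped by titles and genotype labels. The authors deposited, for every library, the PET count and a p-value of each anchor pair. The submitters' processing notes name HiC-Pro and hg19. Settings of the loop caller were not stated in the labels or headers. The authors' deposited loop tables give PET counts, p-values or an FDR, loop widths and, for differential loops, a log2 fold change, per the file headers. They served for anchor names, flags and loop sets.

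Counts were joined over libraries by anchor coordinates. Pairs, anchors and 15-kb windows with at least 20 PETs were fitted with edgeR 4.0.16 (R 4.3.3) quasi-likelihood tests, with library totals, TMM factors and Benjamini-Hochberg adjustment over the whole table, called at 0.05. Normalised counts are PETs per 1000000 PETs of the library after TMM scaling. The main edgeR fits of pairs, anchors, partner anchors and windows were run on simulated data, and the alternatives were not. The changes planted there were larger than most differences at this locus. Those runs therefore do not show whether differences of the size seen here would be found. Alternatives were DESeq2 1.42.0, other totals, other minimums, merged anchors, a replicate block and libraries left out. The members and lists were chosen with earlier results of these data known. All window pairs with 20 or more PETs were named by rule, with called or fullest list genes and the 3 anchors most alike. Intervals cover counting error only, since they are computed from PET counts and leave out the spread between libraries. PETs carry no molecular identifiers. Within-genotype chi-square per pair was 1.19 (STAG2-null) and 1.07 (wild-type), and no library was treated as a copy of another.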

Additional observations from a re-analysis of the deposited data

How the results depend on the processing

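No window pair was called with the settings of the report or in any of the 14 alternatives, so the alternative that leaves out a called loop was not run, and the strongest pair stood in its place, a choice made after seeing the data. In several of these alternatives, named below, no pair of the whole series was called. The lack of a call there does not set the window pairs apart. The window sum, 0.16 on the log2 scale with library totals, was not called under any alternative. It turned to -0.10 with chromosome totals, and ran from 0.056 (without STAG2-null 1) to 0.25 (without STAG2-null 2) with single libraries left out. As a share of chromosome 7 its log2 ratio was -0.10, against 0.16 by library total and 0.0074 by contacts within 5 Mb without the locus, and with single libraries left out it ran from -0.19 to -0.016. The broad anchor turned to -0.12 with chromosome totals and ran from -0.072 (without STAG2-null 1) to 0.31 with single libraries left out. The small anchor ran from 0.073 (without STAG2-null 2) to 0.47 (without STAG2-null 1). The contact over 37.1 kb ran from -0.32 to 0.10, and that over 15.4 kb from -0.14 to 0.88, each turning its sign without wild-type 2. The actin list's count of 1 fell to 0 with chromosome totals, 10 Mb totals, minimums of 10 or 2 PETs, DESeq2, and without STAG2-null 2 or wild-type 2.

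The listed loop kept its direction in all 13 alternatives that gave it a value (1.24 to 1.96), but its call was lost in 9, including each of STAG2-null 2, wild-type 1 and wild-type 2 left out, chromosome and 10 Mb totals, DESeq2 and the high-confidence table. Merging anchors within 5 kb joined its ends, 2.60 kb apart. Every alternative used the libraries whose contrast chose the loop, so its kept direction is no independent support. Over all pairs, 10 were called higher and 13 lower. Chromosome totals gave 9 and 1, plain library totals 7 and 1, 10 Mb totals 5 and 1, a minimum of 40 PETs 6 and 12, and the high-confidence loop set 7 and 5. DESeq2, minimums of 10 and 2 PETs, merged anchors, and leaving out STAG2-null 2 or wild-type 1 gave 0 and 0 (57 higher and 84 lower with DESeq2 at an unadjusted p under 0.05, against 575 and 564 in edgeR).

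Replicate numbers were not shown to pair the libraries (correlation of deviations 0.00265). With the replicate block, 9 pairs were called higher and 15 lower, the window sum was 0.16, and it and all 6 window pairs stayed uncalled.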
